A study of Homo sapiens with 8 samples.

Results

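The genes described here were 10 genes of the G1 phase of the cell cycle, namely the kinases CDK6, CDK4 and CDK2, the cyclins CCND1, CCND2, CCND3, CCNE1 and CCNE2, the kinase inhibitor CDKN1B and the retinoblastoma gene RB1. They were found by GENCODE 44 symbol among the 58302 genes of a count table from RNA-seq of A549 cells, and all 10 were in the table. The set was selected around a measured value of the same comparison, the higher level of CDK6 in cells transfected with siRNA against APEX1 (siAPEX1) than in cells transfected with a control siRNA (siCTRL). The differences between these groups are therefore given for the 10 genes as a description, with no p-value. Where the fit over all genes put one of them past a threshold, this is stated beside the share of all genes or as a property of that fit, and it supports nothing about the set. Of the 10 genes, 5 were among the 5368 genes that passed the filter on low counts (CDK6, CDK4, CCND1, CCND3 and CDKN1B), and the other 5 are described by their counts.

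The A549 line was derived from a lung adenocarcinoma. In the study it was transiently transfected with siRNA against APEX1, the gene of the DNA repair endonuclease APE1, or with a scramble control siRNA, and by the study's methods RNA was taken 72 h later. Each group had 4 libraries of total RNA, all from the same cell line and a single time, which the study's text calls biological replicates. The labels do not say whether they came from separate cultures, and if they did not, the errors and p-values measure only the spread between these libraries. The libraries were made with a small-RNA kit that was altered so that primary miRNA transcripts are also read.

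The G1 phase ends when the retinoblastoma protein is inactivated by phosphorylation and E2F transcription factors are released to turn on genes of DNA replication. Cyclin D bound to CDK4 or CDK6 begins this phosphorylation, and cyclin E bound to CDK2 completes it. p27, the product of CDKN1B, inhibits cyclin E with CDK2, and p16, the product of CDKN2A, inhibits CDK4 and CDK6. In lung adenocarcinoma this pathway is known to be altered at several of these genes.

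The study asked how miRNAs that depend on APE1 act on their targets, and miR-33a and miR-130b were among the miRNAs it followed. Bases 2 to 8 of a miRNA, its seed, pair with complementary letters in the 3′UTR of a target. The mature sequences (RefSeq, GRCh38.p14) are given with the seed in capitals. That of miR-33a-5p lies at chr22:41900949-41900969 and that of miR-130b-3p at chr22:21653354-21653375, both on the plus strand.
miR-33a-5p: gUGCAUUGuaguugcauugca
miR-130b-3p: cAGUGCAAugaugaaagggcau

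The seed match of miR-33a-5p is CAATGCA and that of miR-130b-3p TTGCACT. They do not share a seed. Both were searched on the transcript strand of the 3′UTR of 1 annotated transcript for each gene (GENCODE 44, GRCh38), counted from the stop codon. CDK6 held 2 matches of miR-33a-5p and was the only gene of the 10 with any. The CDK6 transcript ENST00000424848.3 has 8 exons and a 3′UTR of 10219 bases, longer than 98.6% of the 3′UTRs of the tested genes. The match that begins at base 4534 of this 3′UTR is shown in capitals with its flanks (chr7:92610592-92610620 with the flanks, minus strand). An A follows it.
CDK6 match: ctccctttctatatCAATGCAattcacaa

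Among 4837 tested genes with a 3′UTR, 9.9% held at least 1 such match and 1.36% held 2 or more. These shares are over 3′UTRs with a median length of 1509 bases, against 10219 in CDK6. Per length of 3′UTR, CDK6 had 0.196 matches per kb against 0.0526 per kb over these genes. The CDK6 value rests on only 2 matches, and the difference was not tested. The match of miR-130b-3p occurred once in CDK4 and once in CCND2, and 18.8% of the tested genes held it. In CCND2 it begins at base 2317 of 5344 (chr12:4302312-4302340 with the flanks shown, plus strand) and is not followed by an A.
CCND2 match: tcagatgtcgtaatTTGCACTtaggtacc

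A match is a run of letters and not a measured binding site. MIR33A, the gene of miR-33a, had 2 to 11 counts per library, and its CPM overlapped between the groups. Counts per gene do not separate mature miR-33a from longer transcripts of its gene, so the level of mature miR-33a was not measured here. CPM here are counts per 1000000 counts in the 5368 genes that passed the filter, scaled with TMM factors that correct for differences in composition between libraries.

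Library totals ran from 1348386 to 1949886 counted reads. The libraries labelled siAPEX1 were all smaller than those labelled siCTRL, so that library size and group cannot be told apart. The 10 genes together had 135 to 214 counts per library, at most 0.0111% of the total, so the values below rest on few reads. A single count was worth 0.463 to 0.553 CPM under siCTRL and 0.721 to 0.824 CPM under siAPEX1. APEX1 itself had 47 to 64 counts under siCTRL and 19470 to 27916 under siAPEX1, against the label of silenced cells. Counts per gene do not separate APEX1 transcripts from the transfected siRNA, so silencing was not measured here, and directions follow the labels. Epithelial markers were present, with a summed level of 567 to 693 CPM under siCTRL and 221 to 287 CPM under siAPEX1. Of the 6, 5 were tested, and EPCAM was too low to be tested. KRT7, KRT8, KRT18 and KRT19, 4 of these 5, were lower past both thresholds, against 5.68% of all genes tested. CDH1 was higher by adjusted p alone (log2 fold change 0.92), against 15.9% of all genes tested. The part of this shift in the values of the 10 genes was not tested. The 6 markers of alveolar type II cells had 4 counts in all libraries together, and SFTPA1, NKX2-1 and LAMP3 were at 0. The 6 markers of other cell types had 43 counts in all, and PECAM1 was at 0.

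Replicate 2 of siAPEX1 was farther from replicates 1 and 3 of its group than any other pair of that group, with a chi-square per degree of freedom over genes of 3.66 and 3.73, against 1.94 to 2.83 for the other pairs. The widest pair of siCTRL, replicates 1 and 4, was at 3.91. No pair of libraries was as close as sampling noise alone, so none was counted as a duplicate. Without replicate 2 of siAPEX1 the log2 fold changes of CDK6, CDK4, CCND1, CCND3 and CDKN1B were 2.09, −0.47, −0.59, −0.46 and 0.40, each with the sign given below.

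CDK6 (ENSG00000105810, chromosome 7 from 92604921 to 92836573, minus strand) encodes a kinase that partners with D-type cyclins. It had 16, 31, 21 and 21 counts in the siCTRL libraries and 63, 55, 59 and 58 in the siAPEX1 libraries. Every siAPEX1 library was above every siCTRL library, even before scaling to the smaller totals under siAPEX1. The scaled values were 8.05, 15, 9.73 and 11.6 CPM under siCTRL and 51.9, 44.6, 42.5 and 46.1 CPM under siAPEX1. The means were 11.1 ± 2.99 and 46.3 ± 4.0 CPM (SD, n = 4 each), a log2 fold change of 2.05 (SE 0.174, 95% confidence interval 1.70 to 2.40). Within siCTRL the highest library was replicate 2 and the lowest replicate 1, and within siAPEX1 the highest was replicate 1. By size of log2 fold change CDK6 stood 21st from the highest of the 5368 genes. The log2 fold change lay between 1.71 and 2.23 in the 16 alternative settings in which it was fitted, the lowest with library size as the only scaling. In bulk samples, a different share of cells that express a gene and a different amount of its RNA per cell cannot be told apart.

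CDK4 (ENSG00000135446, chromosome 12 from 57747727 to 57756013, minus strand) encodes the other kinase of the D-type cyclins. Its counts were 28, 19, 30 and 20 under siCTRL and 7, 7, 13 and 13 under siAPEX1. These were 14.1, 9.20, 13.9 and 11.1 CPM under siCTRL and 5.76, 5.68, 9.37 and 10.3 CPM under siAPEX1. The counts did not overlap between the groups, but the CPM did, since replicates 3 and 4 of siAPEX1 were above replicate 2 of siCTRL. The means were 12.1 ± 2.35 and 7.79 ± 2.41 CPM (SD, n = 4 each) and the log2 fold change was −0.62 (SE 0.264, 95% confidence interval −1.15 to −0.08). It was below 0 in the 15 alternative settings in which it was tested, from −0.96 with library size only to −0.47. Exons of TSPAN31, which lies on the opposite strand, cover 44.2% of the exon bases of CDK4. TSPAN31 had 3 to 17 counts per library. As the strand setting is not given, it is not known whether reads of the overlap were counted, or for which gene. The counts of CDK4 may therefore lack reads.

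**Figure D1:**
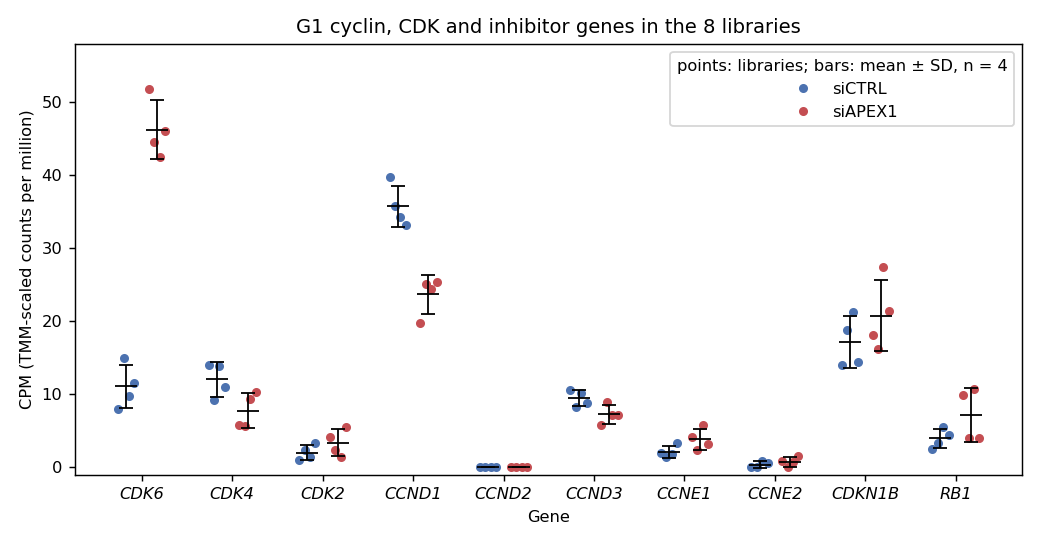
Level of each of the 10 genes (x axis) in CPM (y axis), with a point for each library and bars for the mean ± SD of 4 libraries, siCTRL in blue and siAPEX1 in red. CDK6 was at 42.5 to 51.9 CPM under siAPEX1 and at most 15 CPM under siCTRL, CCND1 was lower under siAPEX1 without overlap, and CCND2 was at 0 throughout.

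The balance between CDK6 and CDK4 was also read within each library. A share of counts within a library does not depend on the scaling between libraries. Of the counts of both kinases, CDK6 took 36.4%, 62%, 41.2% and 51.2% in the siCTRL libraries and 90%, 88.7%, 81.9% and 81.7% in the siAPEX1 libraries. All 4 siAPEX1 libraries lay above all siCTRL libraries. The highest siCTRL share, from 31 of 50 counts, had an exact binomial 95% interval of 47.2% to 75.3%. The lowest siAPEX1 share, from 58 of 71 counts, had an interval of 70.7% to 89.9%, so these intervals met. They cover counting error only, as the reads carry no molecular identifiers. The mean share was 47.7% ± 11.4 under siCTRL and 85.6% ± 4.39 under siAPEX1 (SD, n = 4 each), a difference of 37.9 percentage points. As CDK6 counts per CDK4 count, the siCTRL libraries were at 0.571, 1.63, 0.7 and 1.05 and the siAPEX1 libraries at 9, 7.86, 4.54 and 4.46. The share is of counts and not of molecules, since the annotated exons of CDK6 span 12239 bases and those of CDK4 3094.

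CCND1 (ENSG00000110092, chromosome 11 from 69641156 to 69654474, plus strand) encodes cyclin D1, which links growth signals to CDK4 and CDK6. It had 79, 74, 74 and 60 counts under siCTRL and 24, 31, 34 and 32 under siAPEX1. In CPM the siCTRL libraries were at 39.7, 35.8, 34.3 and 33.2 and the siAPEX1 libraries at 19.8, 25.2, 24.5 and 25.4. All siAPEX1 libraries were below all siCTRL libraries, and replicate 1 of siAPEX1 stood below the other three of its group. The means were 35.8 ± 2.85 and 23.7 ± 2.66 CPM (SD, n = 4 each) and the log2 fold change −0.59 (SE 0.152, 95% confidence interval −0.90 to −0.28). The direction held in its 16 alternative settings, with values from −0.93 to −0.49. Exons of LTO1 on the opposite strand cover 10.4% of the exon bases of CCND1, and LTO1 had at most 8 counts per library.

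CCND3 (ENSG00000112576, chromosome 6 from 41934934 to 42050357, minus strand) encodes cyclin D3, a further partner of these kinases. Its counts were 21, 17, 22 and 16 under siCTRL and 7, 11, 10 and 9 under siAPEX1, or 10.6, 8.23, 10.2 and 8.86 CPM against 5.76, 8.93, 7.21 and 7.15 CPM. The groups overlapped in CPM through replicate 2 of siAPEX1, which was above replicates 2 and 4 of siCTRL. The means were 9.46 ± 1.10 and 7.26 ± 1.3 CPM (SD, n = 4 each), with a log2 fold change of −0.38 (SE 0.271, 95% confidence interval −0.93 to 0.17). CCND2 (ENSG00000118971, chromosome 12 from 4269771 to 4305353), the gene of cyclin D2, had 0 counts in all 8 libraries. By the exact Poisson 95% interval, this allows an expected sum of up to 3.69 counts over the 4 libraries of a group.

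The share of CCND1 among the D-type cyclins overlapped between the groups. The share of CDK6 among their kinases did not, but the set was selected around CDK6, so nothing is read from this difference. CCND1 took 79%, 81.3%, 77.1% and 78.9% of the D-type cyclin counts in the siCTRL libraries and 77.4%, 73.8%, 77.3% and 78.0% in the siAPEX1 libraries. The mean was 79.1% ± 1.73 under siCTRL and 76.6% ± 1.92 under siAPEX1 (SD, n = 4 each), a difference of −2.45 percentage points. Across the 8 libraries CCND3 supplied the rest, between 18.7% and 26.2%.

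**Figure D2:**
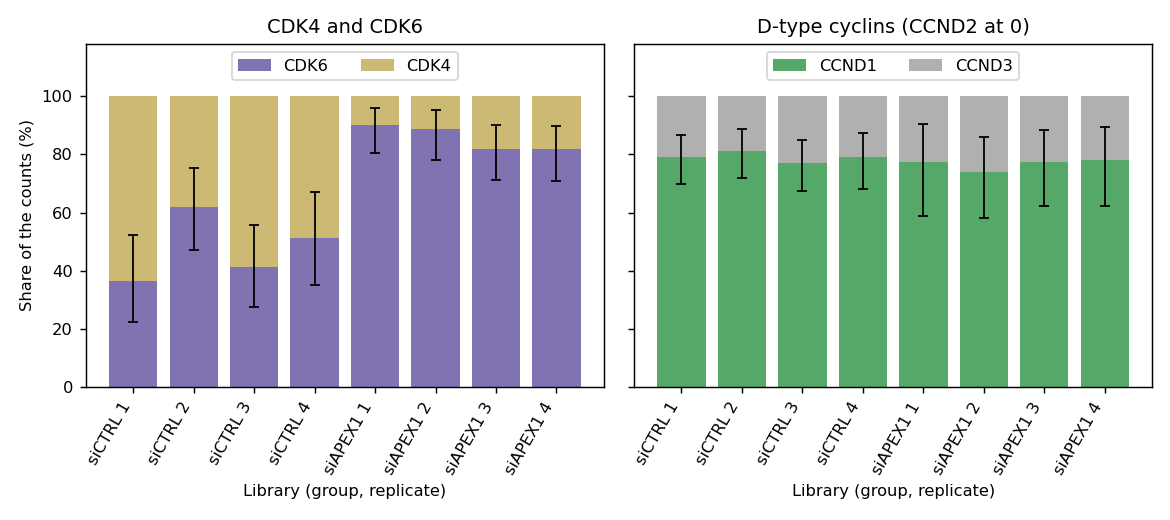
Share of counts in percent (y axis) in each library (x axis), for CDK6 and CDK4 on the left and for CCND1 and CCND3 on the right, with exact binomial 95% intervals on the lower share. CDK6, around which the set was selected, took 36.4% to 62% of the kinase counts under siCTRL and 81.7% to 90% under siAPEX1. CCND1 took 73.8% to 81.3% of the cyclin counts in all libraries.

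CDK2 and the E-type cyclins, which act after the D-type cyclins, were close to the limit of detection. CDK2 (ENSG00000123374, chromosome 12 from 55966781 to 55972789, plus strand) had 2, 5, 3 and 6 counts under siCTRL and 5, 3, 2 and 7 under siAPEX1. The sums were 16 and 17 counts, with exact Poisson 95% intervals of 9.15 to 26.0 and 9.90 to 27.2. Cyclin E1 is encoded by CCNE1 (ENSG00000105173, chromosome 19 from 29811991 to 29824312, plus strand), which had 4, 3, 4 and 6 counts under siCTRL and 5, 3, 8 and 4 under siAPEX1. These summed to 17 and 20 counts, with intervals of 9.90 to 27.2 and 12.2 to 30.9. In both genes the groups overlapped in counts and in CPM. When all genes with at least 1 count were fitted, the log2 fold change was 0.63 for CDK2 (95% confidence interval −0.40 to 1.66) and 0.77 for CCNE1 (−0.20 to 1.74). Both intervals include 0 and a 2-fold higher level. CCNE2 (ENSG00000175305, chromosome 8), the gene of cyclin E2, had 0, 0, 2 and 1 counts under siCTRL and 1, 0, 1 and 2 under siAPEX1. No fold change is given for it because every library was under the floor of 3 counts, and exons of INTS8 on the opposite strand cover 37% of its exon bases.

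CDKN1B (ENSG00000111276, chromosome 12 from 12685498 to 12722369, plus strand) encodes p27. It had 28, 39, 46 and 26 counts under siCTRL and 22, 20, 38 and 27 under siAPEX1. After scaling these were 14.1, 18.9, 21.3 and 14.4 CPM and 18.1, 16.2, 27.4 and 21.5 CPM. The groups overlapped, with replicate 3 the highest in both. The means were 17.2 ± 3.53 and 20.8 ± 4.90 CPM (SD, n = 4 each) and the log2 fold change 0.28 (SE 0.197, 95% confidence interval −0.12 to 0.67). The sign depended on the scaling, as library size only gave −0.07.

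RB1 (ENSG00000139687, chromosome 13 from 48303744 to 48599436, plus strand) encodes the protein that the G1 kinases phosphorylate. It had 5, 7, 12 and 8 counts under siCTRL and 12, 5, 15 and 5 under siAPEX1, too few to pass the filter. In CPM, replicates 1 and 3 of siAPEX1 (9.88 and 10.8) were above all siCTRL libraries (2.51, 3.39, 5.56 and 4.43), whereas replicates 2 and 4 (4.06 and 3.97) lay among them. The sums were 32 and 37 counts, with exact Poisson 95% intervals of 21.9 to 45.2 and 26.1 to 51. In the fit of all genes with at least 1 count the log2 fold change was 0.76 (SE 0.362, 95% confidence interval 0.05 to 1.47), and its adjusted p was above 0.05. RB1 was not tested in the main fit and had no call there. Without replicate 2 or without replicate 4 of siAPEX1, RB1 passed the filter and both thresholds, at log2 fold changes of 1.06 and 1.08. Each of these fits left out a library with 5 counts, so that RB1 was tested with a low value removed. Nothing is read from these calls.

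Per length of exon the genes could be set side by side. Length was the union of all annotated exons, which is longer than any single transcript. Opposite-strand exons cover 44.2% of this length in CDK4 and 37% in CCNE2, where reads may not have been counted. Whether reads covered the exons evenly was not tested, so the order is approximate. Under siCTRL, CCND1 was the highest at 7.51 CPM per kb, followed by CDK4 at 3.90, CDKN1B at 1.86, CCND3 at 1.64 and CDK6 at 0.907 CPM per kb. CCNE1, RB1 and CDK2 followed at 0.878, 0.618 and 0.523 CPM per kb, and CCNE2 was at 0.0842 CPM per kb. The libraries of CDK6, CCNE1, RB1 and CDK2 overlapped from neighbour to neighbour in this order, as did those of CDKN1B and CCND3, while CCND1, CDK4 and CDKN1B were separate from each other. Under siAPEX1, CDK6 was at 3.78 CPM per kb, after CCND1 at 4.98 and before CDK4 at 2.52 and CDKN1B at 2.25 CPM per kb. There the libraries of CDK6 did not overlap with those of CDK4 but did with those of CCND1. CCNE1 at 1.57, CCND3 at 1.26, RB1 at 1.12 and CDK2 at 0.872 CPM per kb overlapped from neighbour to neighbour. CCND2 was at 0 in both groups.

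**Figure D3:**
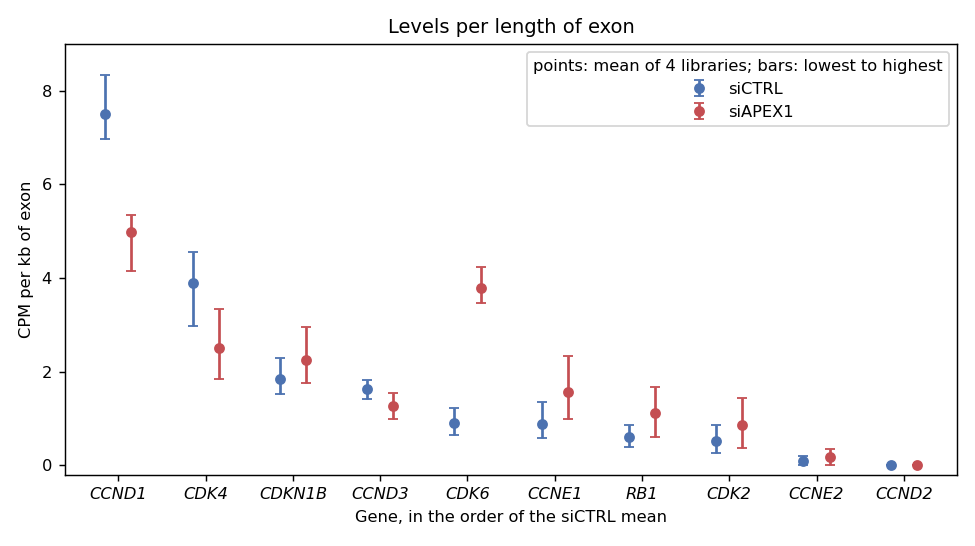
Level of each gene in CPM per kb of exon (y axis) in the order of the siCTRL mean (x axis), with the mean of 4 libraries as a point and bars from the lowest to the highest library. CDK6 was below CCND3 under siCTRL (0.907 CPM per kb) and between CCND1 and CDK4 under siAPEX1 (3.78 CPM per kb).

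Across all genes, calls were made with edgeR's quasi-likelihood test at an adjusted p of at most 0.05 with a log2 fold change of at least 1 in either direction. Of the 5368 genes, 3.6% were called higher and 5.68% lower under siAPEX1. Among the 5 of the 10 G1 genes that were tested, 1 was higher (CDK6) and 0 lower, where DESeq2 also gave 0. At an unadjusted p under 0.05, edgeR gave 1 higher and 2 lower of the 5, against 20.5% of all genes in each direction. By adjusted p alone, 1 of the 5 was higher (CDK6) and 1 lower (CCND1), against 15.9% higher and 15.8% lower over all genes. CPM did not overlap between the groups in the same pair of genes, 1 higher and 1 lower, against 14% and 14.9% of all genes. The median log2 fold change of the 5 genes was −0.38 with a range from −0.62 to 2.05, and that of all genes −0.003. As these genes were selected in this comparison, nothing is read from the counts.

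A further list held 27 genes of the same pathway, picked by role, and 11 of them passed the filter. It was picked with earlier results of these data known, so its counts and the adjusted p of its genes are a description. Of these 11, 2 were higher (CDKN1A and WEE1) and 0 lower past both thresholds, against 3.6% and 5.68% of all genes. DESeq2 also called 0 lower. At an unadjusted p under 0.05, edgeR gave 3 higher and 1 lower of the 11, against 20.5% of all genes in each direction. The median log2 fold change of the 11 was −0.02, with 5 above 0 and 6 below, in a range from −0.81 to 1.60. The other 16 genes of the list had at most 16 counts in any library.

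Among the inhibitors of the list, CDKN1A (ENSG00000124762, chromosome 6 from 36676460 to 36687337, plus strand) encodes p21, which is a relative of p27 and a known target of p53. It had 39, 47, 34 and 33 counts under siCTRL and 76, 65, 93 and 61 under siAPEX1, without overlap. It rose from 19.1 ± 2.92 to 57.7 ± 8.58 CPM (SD, n = 4 each), a log2 fold change of 1.60 (SE 0.149; edgeR's quasi-likelihood test, Benjamini-Hochberg adjusted p = 1.42e-11), and was called in all 16 alternative settings. All 4 INK4 inhibitors were too low to be tested, with at most 9 counts in any library. CDKN2A (ENSG00000147889, chromosome 9), the gene of p16, which A549 cells are known to have lost by deletion, had 0 counts in all 8 libraries, and so did CDKN2B.

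WEE1 (ENSG00000166483, chromosome 11 from 9573670 to 9593457, plus strand) encodes a kinase that inhibits CDK1 and CDK2. Its counts were 17, 16, 19 and 20 under siCTRL and 30, 23, 22 and 17 under siAPEX1, and in CPM the groups did not overlap. It rose from 9.04 ± 1.42 to 18.2 ± 4.83 CPM (SD, n = 4 each), a log2 fold change of 1.0 (SE 0.229; edgeR, adjusted p = 6.41e-04). As this is at the threshold, WEE1 was no longer called in 8 of its 16 alternative settings, with values from 0.66 to 1.14, among them the fits without siAPEX1 replicate 1 (0.85) or siCTRL replicate 1 (0.98), 2 (0.94) or 3 (0.99). Its adjusted p in these settings was at most 0.0179. CDK7, the catalytic part of the kinase that activates CDKs, had the lowest log2 fold change of the tested genes of the list. It was singled out after its values were seen. It had 9.03 ± 1.47 CPM under siCTRL and 5.13 ± 1.11 CPM under siAPEX1 (SD, n = 4 each), with no overlap and a log2 fold change of −0.81 (SE 0.303; edgeR, adjusted p = 0.0377), short of the fold threshold. Its adjusted p lay between 0.00185 (library size only) and 0.155 (DESeq2) in its 15 alternative settings.

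MYC, a transcription factor that promotes entry into the cell cycle, had 21.0 ± 4.13 CPM under siCTRL and 22.3 ± 4.14 CPM under siAPEX1 (SD, n = 4 each). The groups overlapped, and the log2 fold change was 0.10 (SE 0.185, 95% confidence interval −0.27 to 0.47; edgeR, adjusted p = 0.721). The sign of this value changed with library size only (−0.24). Of the E2F and DP transcription factors 2 of 7 were tested, of the pocket proteins related to RB1 1 of 2, of the CDK-activating kinase 2 of 3 and of the ubiquitin ligase parts 3 of 6. None of these was called past both thresholds.

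**Figure D4:**
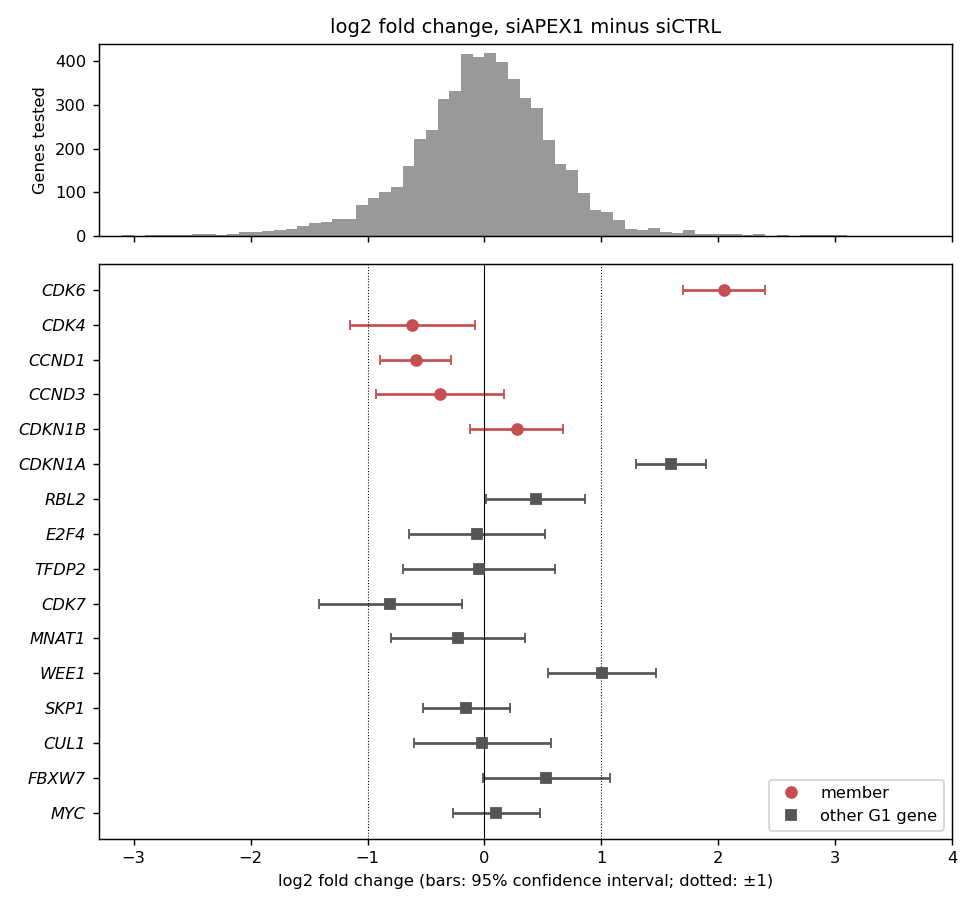
Below, log2 fold change of siAPEX1 against siCTRL (x axis) with its 95% confidence interval for the 5 tested genes of the set (red circles) and 11 further G1 genes (grey squares), and above, the number of tested genes per bin of log2 fold change, without APEX1. CDK6 (2.05) and CDKN1A (1.60) stood at the upper edge of the distribution, WEE1 (1.0) at the dotted threshold, and CDK4, CCND1 and CCND3 between −0.62 and −0.38.

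The genes whose log2 CPM followed that of CDK6 most closely over the 8 libraries were RNU5E-4P (Pearson r = 0.995), MBNL1 (0.994), SCARNA20 (0.993), FOS (0.990) and RNVU1-2 (0.989). Their log2 fold changes were 1.08, 1.41, 0.72, 1.0 and 1.66. The 8 points form 2 groups, so r mostly follows the difference between the groups, and 307 genes had an r above 0.9.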

How the data were processed

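Total RNA of A549 cells, 4 libraries transfected with siAPEX1 and 4 with siCTRL, was sequenced as 100-bp single-end reads. The authors trimmed reads with cutadapt, aligned them with STAR 2.5.3a to GRCh38 (per the submitters' processing notes, which also name CASAVA and DESeq2) and counted reads per Ensembl gene. The deposited values are these raw counts, whole numbers without normalization. The annotation release and the strand setting are not given in the sources used here. The title of replicate 3 of siCTRL carries another library number than its column, and the column was matched by group and replicate number.

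Groups and replicate numbers came from the labels. Identifiers were matched to GENCODE 44 (57532 of 58302 genes). Totals were 1348386 to 1949886 counts per library, and 3 counts were taken as the floor. edgeR 4.0.16 in R 4.3.3 was used with TMM factors, filterByExpr (minimum count 10, minimum total 15) and the quasi-likelihood test. P-values were adjusted over 5368 genes (Benjamini-Hochberg), with thresholds of 0.05 for adjusted p and 1 for log2 fold change. The SE is the log2 fold change divided by the square root of F. Log2 CPM used a prior count of 2. The programs were tested on simulated data.

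Alternatives were DESeq2 1.42.0, other scalings and filters, a fold threshold of 0.75, the replicate number as a block, each library left out in turn, and, chosen after seeing the data, TMM factors from protein-coding genes. The 10 genes, the list of 27 genes and the marker lists were chosen with earlier results of these data known. Named genes were the 10, those of the list past both thresholds, CDKN1A, CDKN2A and MYC in any case, APEX1, and the 5 genes with the highest correlation to CDK6. CDKN2B and CDK7 were named after their values were seen. miRNA sequences are from RefSeq. The sequence and position of some seed matches are not reported here. The authors' own comparisons and their other assays were not used.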

Additional observations from a re-analysis of the deposited data

Results flagged for a closer look

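Replicate 1 of siAPEX1 stood apart from the other 3 libraries of its group in CCND1, with 19.8 CPM against 24.5 to 25.4 CPM, a gap that takes up more of the group's range than Dixon's 95% critical value for 4 samples allows. In all, 14 groups of libraries were examined in this way, and chance flags about 1 in 20. The library was also the lowest of its group in CCND3 (5.76 CPM) and the highest in CDK6 (51.9 CPM). The cause was not tested.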

How the results depend on the processing

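CDKN1A was called higher in all 16 alternative settings. These refit the same libraries, and its list was picked with earlier results known, so this steadiness is a description only. The values of the 10 genes are from the comparison that selected them, so their steadiness over settings supports nothing. Over 9 genes (5 of the set, CDKN1A, WEE1, CDK7 and MYC), 141 refits gave 129 with the same direction and the same call by both thresholds together, 8 that lost the call (all WEE1), 1 that gained it (CDK7, −1.14 with library size only) and 3 with the opposite sign. These 3 were CDKN1B (−0.065) and MYC (−0.24) with library size only and MYC without siCTRL replicate 2 (−0.011, with a highest value of 0.25 among the fits that leave out a library). A refit that crossed the threshold of adjusted p alone was counted as the same. CDK7 did so, with an adjusted p of 0.0377 in the main edgeR fit and 0.155 with DESeq2. CDK4 and CCND3 were above this threshold in the main fit. CDK4 fell below it with library size only and without siCTRL replicate 2, and CCND3 with library size only. Over all genes, 193 were called higher and 305 lower, and library size only gave 84 and 655, all genes with at least 1 count 295 and 648, at least 10 counts in every library 81 and 100, and the fold threshold of 0.75 404 and 531. With library size only, the median over all genes shifted to −0.34 (log2). Of the 11 genes of the list, 1 was higher in place of 2 with upper-quartile factors, library size only, at least 1 count or at least 10 counts in every library, and 1 was lower with library size only or the threshold of 0.75. Without 1 library at a time, 1 to 2 of the list and 1 to 2 of the 10 genes were higher. The latter came through RB1, which among these fits was tested only without replicate 2 or 4 of siAPEX1. CDK6's share of the kinase counts differed by 34.1 to 42.7 percentage points. The added TMM factors from protein-coding genes gave 213 and 280 over all genes. The cause of these shifts was not tested.

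Same-numbered libraries did not deviate together (correlations −0.037 to −0.003), so the numbers were not taken as pairs. With the replicate block 193 genes were higher and 301 lower, the log2 fold change of CDK6 was 2.05, and 2 genes of the list were higher. The replicate block changed no call among the genes of the set or of the list.

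With CDK2, CCNE1, CCNE2 and RB1 at 15 or fewer counts per library, changes in these genes were limited by depth.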
